A study of Rattus norvegicus with 19 samples.

Results

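The class II antigen presentation genes were followed in deep motor cortex of the rat after a lesion of the spinal cord. The set holds 8 genes: Cd74, RT1-Da, RT1-Db1, RT1-Ba, RT1-Bb, RT1-DMa, RT1-DMb and Ciita. Every probe set annotated to 1 of these symbols and to no other gene was taken, whatever its values, which gave 14 probe sets out of the 31042 tested and 8 genes out of the 14217 named on the array. RT1-Ba is read by 4 probe sets, RT1-Db1, RT1-Bb and Ciita by 2 each, and the other 4 genes by 1 each.

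All rats were adult female Fischer 344 animals. In the lesioned rats the dorsal columns of the cord were cut with a wire knife at the third cervical segment, which severs the axons of corticospinal neurons far from the tissue that was measured. That tissue was the deep part of the motor cortex for fore- and hindlimb, dissected in bulk with its layer V neurons, glia and vessels. Lesioned rats gave 3 arrays at each of days 1, 3, 7, 14 and 49, and control cortex gave 4 arrays. Whether the controls were sham-operated is not stated in the labels, and neither is whether each array is 1 rat, so p-values measure the spread between these samples.

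Class II molecules are pairs of an alpha and a beta chain that carry peptides from the endosomal pathway to the cell surface, where CD4 T cells read them. Cd74 is the invariant chain, which holds new class II molecules in shape and guides them to endosomes, and the DM pair then exchanges its remnant for a peptide. Ciita is the coactivator without which the class II genes are transcribed weakly in most cells. In the healthy rodent brain class II protein is scarce in the parenchyma and is found mainly on macrophages and dendritic cells of the meninges and vessels, and microglia can begin to express it after injury or interferon gamma.

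Ciita acts through proteins that sit on a shared promoter element, in which an X box lies a short way before a Y box, the site of NF-Y. Windows around the Y box are shown for 6 of the 8 genes to let the shared element be seen in the genes whose values are given next. The promoters are RefSeq's on assembly GRCr8, the windows are written 5′ to 3′ on the gene's strand, and capitals mark the core of the X box (ACNGATG) and the Y box (TGATTGG), or, in Cd74, a CCAAT box. The windows are chr18:56526987-56527051 on the plus strand for Cd74, chr20:4515316-4515380 on the plus strand for RT1-Da, chr20:4560228-4560292 on the minus strand for RT1-Db1, chr20:4576964-4577028 on the plus strand for RT1-Ba, chr20:4604165-4604229 on the minus strand for RT1-Bb and chr20:4712385-4712449 on the minus strand for RT1-DMa.
Cd74: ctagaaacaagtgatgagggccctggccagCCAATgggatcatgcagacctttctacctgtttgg
RT1-Da: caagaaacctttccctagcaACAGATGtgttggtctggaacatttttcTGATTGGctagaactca
RT1-Db1: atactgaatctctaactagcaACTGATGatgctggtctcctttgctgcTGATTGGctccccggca
RT1-Ba: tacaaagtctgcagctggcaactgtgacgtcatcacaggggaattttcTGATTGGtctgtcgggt
RT1-Bb: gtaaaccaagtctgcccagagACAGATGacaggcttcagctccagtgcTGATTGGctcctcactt
RT1-DMa: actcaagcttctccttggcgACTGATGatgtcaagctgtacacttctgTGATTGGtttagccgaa
The motifs were written down after these promoters had been read, so their presence here is a description. Each was searched on both strands in the 250 bases before the start of 27457 promoters. The Y box was in 6.71% of all promoters, in 5 of these 6 and in both other class II genes with an entry, RT1-DOa and RT1-DOb. The X box core was in 8.38% of all promoters, and CCAAT, whose reverse complement lies inside the Y box, was in 34.3%. An X box core 10 to 30 bases before a Y box on the gene's strand was found in 8 promoters, or 0.0291%: RT1-Da, RT1-Db1, RT1-Db2, RT1-Bb, RT1-DMa, RT1-DOb, Tdo2 and Hsd17b7. In the printed windows 20 or 21 bases lie between the core and the Y box. RT1-DMa, which shares the element, is among the genes with little difference after the lesion. A relation of the element to the lesion values was not tested.

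The arrays were closely alike with 2 exceptions. The median correlation of an array with the others was between 0.994 and 0.997 in 17 arrays, against 0.931 in day14 replicate 2 and 0.968 in day49 replicate 2. In day14 replicate 2 the difference between 3′ and 5′ probe sets, a measure of RNA integrity, was 2.24 for beta-actin and 3.18 for GAPDH on the log2 scale, and in the 17 arrays it was at most 1.29 and 0.196. The class II values that lean most on either array are given with and without both. Of the markers of the labelled tissue, Snap25, Pcp4 and Etv1, of neurons and layer V, stood at percentiles 99.9, 99.8 and 97.7 of all probe sets by mean signal. Camk2a, Bcl11b and Foxp2 stood at percentiles 53.1, 51.3 and 39.0, and Fezf2 and Tbr1, also of deep layer neurons, at 30.4 and 17.1. Probes differ in how strongly they bind, so such a percentile says how bright a probe set is and not how much transcript was there, and the markers do not test the label.

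**Figure D1:**
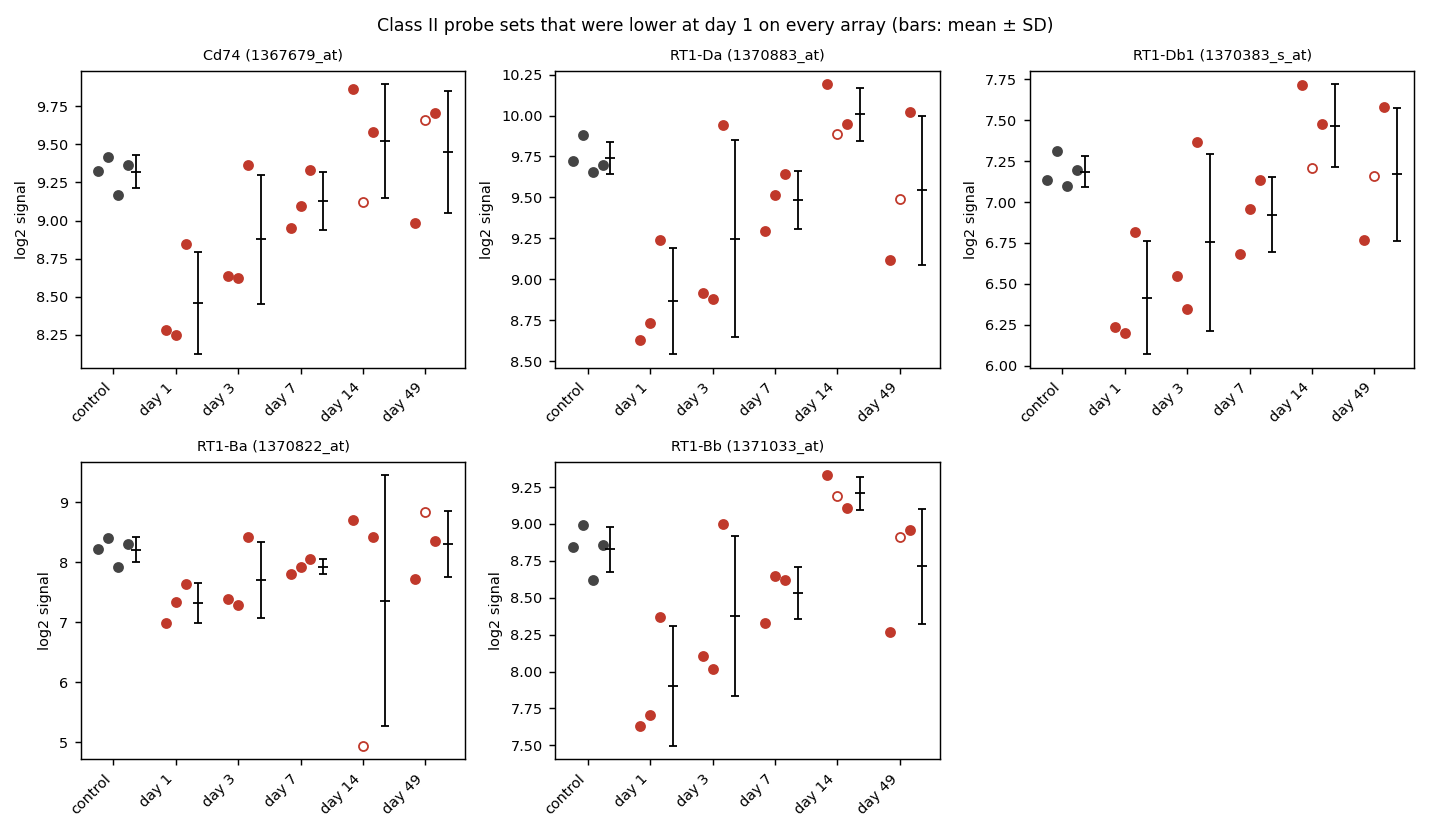
Log2 signal of the brightest probe sets of Cd74, RT1-Da, RT1-Db1, RT1-Ba and RT1-Bb on each of the 19 arrays. The horizontal axis gives control and the days after the lesion, grey points are control arrays, red points lesion arrays, open points the 2 arrays that stand apart, and bars the mean ± SD. In all 5 panels the 3 day 1 arrays lie below the 4 control arrays, and in RT1-Ba 1 open point at day 14 lies near 4.95.

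At day 1 the brightest probe sets of Cd74 and of the 4 classical class II chains stood at 0.527 to 0.587 of the control level, but no difference passed the test over all probe sets. The other 5 probe sets of RT1-Ba, RT1-Bb and RT1-Db1 stood at 0.892 to 1.09 of the control level. Cd74 had signals of 8.28, 8.25 and 8.84 (log2) in the 3 day 1 cortices, against 9.32, 9.42, 9.17 and 9.37 in the 4 control cortices. RT1-Da, the alpha chain of the RT1-D molecule that corresponds to human HLA-DR, had 8.63, 8.73 and 9.24 at day 1, against 9.72, 9.88, 9.66 and 9.70 in control cortex. RT1-Db1, the beta chain of that pair, had 6.23, 6.20 and 6.82 at day 1 in its brighter probe set, against 7.13, 7.31, 7.10 and 7.19 in control cortex. In each of these 3 genes the highest day 1 array was replicate 3, and it was still below the lowest control array.

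RT1-Ba, the alpha chain of the RT1-B molecule that corresponds to human HLA-DQ, had 6.98, 7.33 and 7.64 at day 1 in its brightest probe set, against 8.23, 8.40, 7.92 and 8.30 in control cortex. RT1-Bb, its beta chain, had 7.63, 7.71 and 8.37 at day 1 in its brighter probe set, against 8.85, 8.99, 8.62 and 8.85 in control cortex. In these probe sets the day 1 and control arrays did not overlap, and in the other 3 of RT1-Ba and the other 1 of RT1-Bb they did. Of the 14 class II probe sets, 5 had all day 1 arrays below all control arrays, where 2.54% of all probe sets did, and none had them above (4.4% of all probe sets).

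The differences between day 1 and control cortex were close to each other in size. On the log2 scale they were -0.86 (SE 0.22) for Cd74, -0.87 (SE 0.24) for RT1-Da, -0.77 (SE 0.23) for RT1-Db1, -0.89 (SE 0.63) for RT1-Ba and -0.92 (SE 0.23) for RT1-Bb. Each SE draws on the spread in all groups, and that of RT1-Ba was 0.23 without day14 replicate 2 and day49 replicate 2. After Benjamini-Hochberg adjustment over all probe sets, limma's p was 0.702 for RT1-Bb, 0.831 for Cd74 and 1.00 for the other 3. None of the 14 class II probe sets passed 0.05 at day 1, where 11 probe sets in all did (0.0354%). Without adjustment 4 of the 14 passed 0.05, against 1.64% of all probe sets. That share depends on the 2 arrays: 510 of the 31042 probe sets passed with them and 2210 without them. RT1-Ba then passed as well (unadjusted p = 0.00165 in limma's fit). In bulk tissue fewer cells of a type and less RNA per cell cannot be told apart.

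The call at day 1 depends on how the arrays are weighted. With limma's array weights, which let arrays far from their group count less, day14 replicate 2 had a weight of 0.0368 and day49 replicate 2 one of 0.0670. All 5 probe sets then passed the test, with differences of -0.99 for Cd74 (adjusted p = 0.00726), -1.02 for RT1-Da (adjusted p = 0.0284), -0.89 for RT1-Db1 (adjusted p = 0.0425), -1.11 for RT1-Ba (adjusted p = 0.0377) and -1.11 for RT1-Bb (adjusted p = 0.00989). In that fit 175 probe sets passed, or 0.564% of all. Among the day 1 arrays the weight was 0.766 for replicate 3, the one nearest to control, and 3.17 for replicate 1. Of the control arrays replicate 3 had the lowest weight, 0.502, and also the lowest control signal in all 5 probe sets. With the 2 arrays left out and all others counted alike, limma's adjusted p was 0.140 for Cd74, 0.179 for RT1-Bb, 0.229 for RT1-Ba, 0.270 for RT1-Da and 0.328 for RT1-Db1, and 0.219% of all probe sets passed.

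At day 3 the same 5 probe sets were low on 2 of the 3 arrays and at the control level on the other. Cd74 had 8.64, 8.62 and 9.37 at day 3, against 9.17 to 9.42 in control cortex. RT1-Da had 8.92, 8.88 and 9.94, RT1-Bb had 8.11, 8.02 and 9.00, RT1-Ba had 7.38, 7.30 and 8.43, and RT1-Db1 had 6.55, 6.35 and 7.37. Replicate 3 was the high array in each gene, and in all but Cd74 it lay above the highest control array. The mean differences from control at day 3 were -0.51 to -0.43, with an adjusted p of 1.00 for each in limma's test. Without day3 replicate 3 they were -0.87 for RT1-Ba, -0.84 for RT1-Da, -0.76 for RT1-Bb, -0.74 for RT1-Db1 and -0.69 for Cd74, and without day3 replicate 2 that of RT1-Db1 was -0.23, so the size at day 3 depends on single arrays. No class II probe set had day 3 arrays apart from the controls (2.82% of all probe sets were apart and lower, 2.65% higher). None passed the test at day 3, and none of all probe sets did (0%), against 282 probe sets with an unadjusted p under 0.05.

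At day 7 the same 5 probe sets lay nearer to control. Cd74 had 8.95, 9.10 and 9.33 at day 7, against 9.17 to 9.42 in control cortex. RT1-Da had 9.29, 9.52 and 9.64, against 9.66 to 9.88 in control cortex, and was the 1 class II probe set of 14 whose day 7 arrays all lay below the control arrays, as 4.19% of all probe sets did. None lay above (2.86%). The mean differences of the 5 probe sets at day 7 were -0.29 to -0.19, and none passed limma's test, as none of all probe sets did (0%; 275 at an unadjusted p under 0.05).

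At day 14 both RT1-D chains and RT1-Bb had means above control, by less than they had stood below it at day 1. RT1-Bb had 9.33, 9.19 and 9.11 at day 14, against 8.62 to 8.99 in control cortex, a difference of 0.38 or 1.30-fold (adjusted p = 0.407 in limma's test). RT1-Da had 10.19, 9.89 and 9.95, against 9.66 to 9.88 in control cortex, a difference of 0.27 (adjusted p = 0.545). RT1-Db1 had 7.72, 7.21 and 7.48, against 7.10 to 7.31 in control cortex, and its day 14 and control arrays overlapped.

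Cd74 had 9.86, 9.12 and 9.58 at day 14, against 9.17 to 9.42 in control cortex, with day14 replicate 2 below all controls and the other arrays above them. Its difference at day 14 was 0.20 (adjusted p = 0.623 in limma's test) with that array and 0.40 when both arrays that stand apart were dropped. RT1-Ba had 8.70, 4.95 and 8.42, and the difference of -0.86 (adjusted p = 0.473) becomes 0.35 without day14 replicate 2, so its sign is set by that array. Of the 14 class II probe sets, 3 had all day 14 arrays above all control arrays (RT1-Da, RT1-Bb and the Ciita probe set 1369214_a_at), where 6.43% of all probe sets did, and none had them below (2.62%). None of the 14 passed limma's test at day 14, as none of all probe sets did (0%; 4069 at an unadjusted p under 0.05).

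At day 49 the 5 probe sets spread on both sides of control. Cd74 had 8.99, 9.66 and 9.71 at day 49, against 9.17 to 9.42 in control cortex. RT1-Da had 9.11, 9.49 and 10.02, RT1-Db1 had 6.77, 7.16 and 7.58, RT1-Ba had 7.73, 8.84 and 8.35, and RT1-Bb had 8.27, 8.91 and 8.96. Replicate 1 was the lowest of the 3 arrays in every one of these genes. The mean differences from control were -0.20 to 0.13, no class II probe set had day 49 arrays apart from the controls (4.8% of all probe sets were apart and lower, 5.27% higher), and none of the 14 or of all probe sets passed limma's test (0%; 4783 at an unadjusted p under 0.05).

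**Figure D2:**
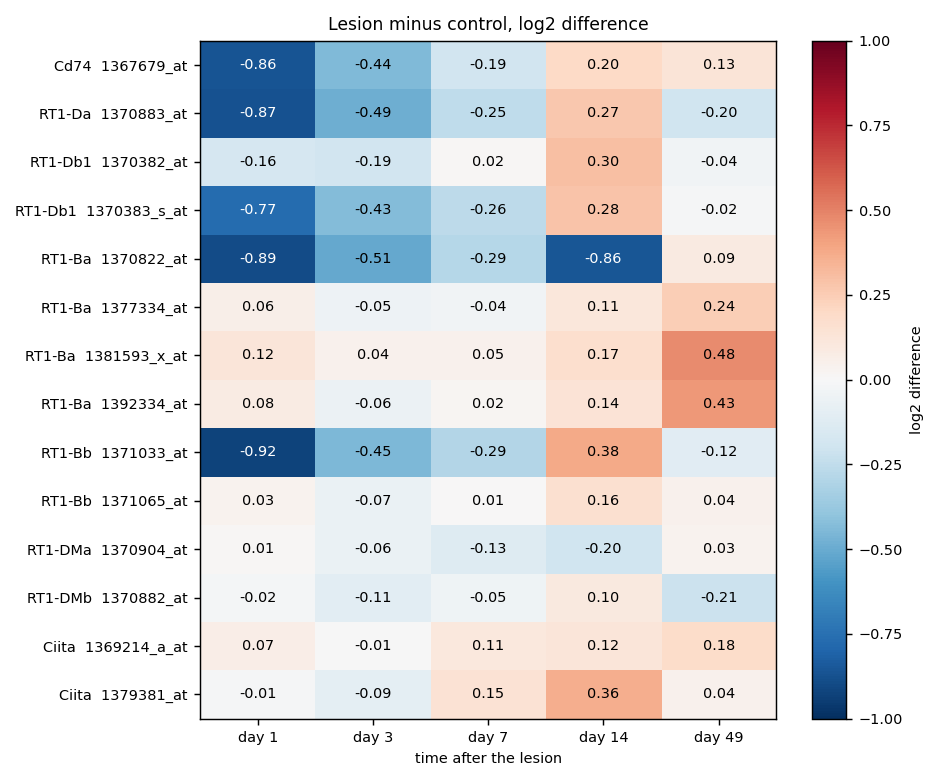
Log2 difference from the control mean of the 14 class II probe sets (vertical axis, gene and probe set) at days 1, 3, 7, 14 and 49 after the lesion (horizontal axis), with the value in each cell and colour from blue for lower to red for higher. The 5 brightest probe sets of Cd74 and the RT1-D and RT1-B chains are lower at days 1, 3 and 7, and the RT1-Ba cell of -0.86 at day 14 rests on 1 array.

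Ordered by group mean, RT1-Da and the brighter RT1-Db1 probe set had the same order, from day 1 through days 3, 7 and 49 and control to day 14. Cd74 had day 1 lowest, then day 3, day 7, control, day 49 and day 14. Neighbours in these orders differed by less than their spread in most places: Cd74 averaged 8.88 ± 0.42 at day 3 and 8.46 ± 0.34 at day 1, and 9.45 ± 0.40 at day 49 and 9.52 ± 0.37 at day 14 (SD, n = 3 each). In Cd74 the SD was larger at each lesion time than in control cortex. It was 0.34 to 0.42 at days 1, 3, 14 and 49 and 0.19 at day 7, against 0.11 in control cortex. RT1-Bb averaged 7.90 ± 0.40 at day 1 and 9.21 ± 0.11 at day 14 (SD, n = 3 each), against 8.83 ± 0.15 in control cortex (SD, n = 4).

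The later times were also set against the early ones with no control array in the comparison. Days 7 and 14 were above days 1 and 3 by 0.66 (SE 0.17) or 1.58-fold in Cd74, by 0.69 or 1.61-fold in RT1-Da, by 0.61 or 1.53-fold in RT1-Db1 and by 0.73 or 1.66-fold in RT1-Bb. RT1-Ba differed by 0.13 with day14 replicate 2 and by 0.73 when both arrays that stand apart were dropped. Of the 14 class II probe sets 1 was lower at the later times and 13 were higher, where 39.6% of all probe sets were lower. In limma's fit 6 of the 14 had an unadjusted p under 0.05, against 2.97% of all probe sets. Of all probe sets 921 did so with the 2 arrays that stand apart and 1562 without them. None passed limma's test after adjustment (0% of all probe sets), with adjusted p-values of 0.855 to 0.955 for the 5 probe sets. With array weights all 5 passed, with adjusted p-values of 0.00288 to 0.0249, as 0.557% of all probe sets did.

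Day 14 was also set against day 1, the highest and lowest times of most of these genes, a pair picked after the values were seen. The differences were 1.31 for RT1-Bb, 1.14 for RT1-Da, 1.06 for Cd74 and 1.05 for RT1-Db1, with adjusted p-values of 0.127, 0.337, 0.337 and 0.419 in limma's fit, and no class II probe set passed, where 0.029% of all probe sets did. The brightest RT1-Ba probe set differed by 0.04 (adjusted p = 0.986 in limma's fit), with day14 replicate 2 at 4.95 among its arrays.

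Over all 5 times together the lesioned cortex differed from control cortex by -0.23 in Cd74, -0.31 in RT1-Da, -0.24 in RT1-Db1, -0.49 in RT1-Ba and -0.28 in RT1-Bb. That of RT1-Ba was -0.30 without the 2 arrays that stand apart. None of the 14 probe sets passed limma's test in that comparison, as none of all probe sets did (0%; 913 at an unadjusted p under 0.05). The moderated F test, which asks whether any time differs from control, gave class II probe sets adjusted p-values of 0.724 to 0.883 and called 0.0129% of all probe sets, none of them in class II. Before adjustment its p was 0.00183 for RT1-Bb, 0.00341 for Cd74, 0.00697 for RT1-Da and 0.00981 for RT1-Db1 in limma's fit. It was 0.547 for the brightest RT1-Ba probe set and 0.0686 to 0.810 for the other 9. Of the 31042 probe sets 1368 had an unadjusted F test p under 0.05.

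The DM chains, which edit the peptides that class II molecules carry, had day 1 values within or near the control range. RT1-DMa had 6.52, 6.61 and 6.81 at day 1, against 6.49, 6.64, 6.69 and 6.72 in control cortex. RT1-DMb had 6.72, 6.80 and 7.01 at day 1, against 6.95, 6.88, 6.79 and 6.85 in control cortex. Both ranges overlapped those of control at every time. RT1-DMb averaged 6.76 ± 0.27 at day 3 (SD, n = 3), against 6.87 ± 0.07 in control cortex (SD, n = 4), with replicates 1 and 2 low and replicate 3 high, the same replicate as in the 5 genes above. RT1-DMa had 5.78 on day14 replicate 2, against 6.41 to 6.93 on the other 18 arrays.

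Ciita, the coactivator of the whole set, had weak signal. Its 2 probe sets stood at percentiles 43.9 and 21.7 of all probe sets by mean signal. Probe set 1369214_a_at had 5.03, 5.19 and 5.09 at day 1, against 5.10, 5.10, 4.93 and 5.03 in control cortex. Probe set 1379381_at had 3.98, 3.92 and 3.87 at day 1, against 4.00, 3.96, 3.79 and 3.99 in control cortex. Neither reading was lower at day 1 beyond the control range. At day 14 the first had 5.16, 5.14 and 5.19, all above the highest control of 5.10, and the second had 4.00, 4.71 and 4.18, of which the highest is day14 replicate 2. The second differed from control by 0.36 at day 14 (adjusted p = 0.365 in limma's test), and by 0.16 without that array. A weak signal on an array can lie near the level at which probes no longer follow the transcript.

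**Figure D3:**
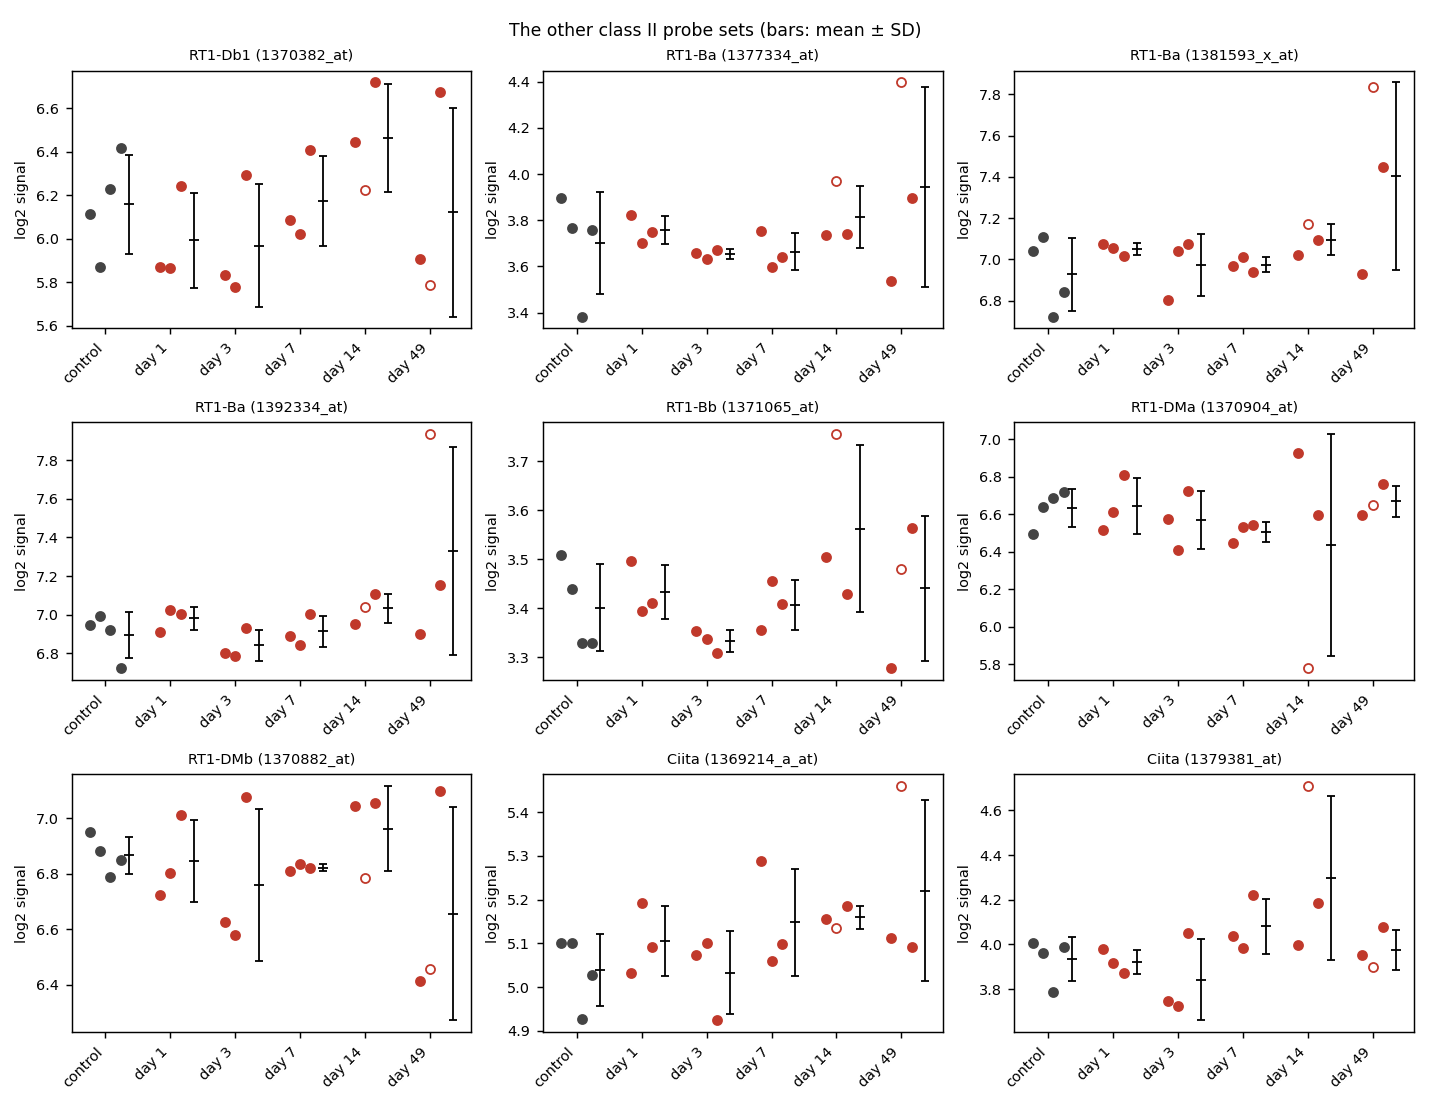
Log2 signal of the other 9 class II probe sets on each of the 19 arrays, by control and days after the lesion, with the colours, open points and bars of the plot of the 5 brightest probe sets. RT1-DMa, RT1-DMb and both Ciita probe sets overlap control at day 1, and RT1-Ba 1381593_x_at and 1392334_at have their highest arrays at day 49.

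Probe sets of 1 gene disagreed. Besides the brightest one, RT1-Ba has 1377334_at, 1381593_x_at and 1392334_at, and none of them was lower at day 1: 1381593_x_at had 7.08, 7.06 and 7.02 at day 1, against 7.04, 7.11, 6.72 and 6.84 in control cortex. At day 49 1381593_x_at had 6.93, 7.84 and 7.45, against 6.72 to 7.11 in control cortex, and 1392334_at had 6.90, 7.93 and 7.15, against 6.72 to 6.99 in control cortex. Their differences at day 49 were 0.48 and 0.43 and did not pass limma's test (adjusted p = 0.306 and 0.306). When both arrays that stand apart were dropped, day49 replicate 2 among them, they were 0.26 (adjusted p = 0.424) and 0.13 (adjusted p = 0.608). Without day49 replicate 1 the differences were 0.71 (adjusted p = 0.0167) and 0.65 (adjusted p = 0.0299), and 2435 probe sets in all then passed; the highest of the arrays that remain is day49 replicate 2. With array weights the differences were 0.41 (adjusted p = 0.00542) and 0.22 (adjusted p = 0.0493), in a fit that called 3 class II probe sets and 21.0% of all probe sets at day 49. In that fit day49 replicate 3 had a weight of 3.70, against 0.385 for replicate 1 and 0.0670 for replicate 2. The calls at day 49 therefore rest mostly on 1 array of that time.

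The second RT1-Bb probe set, 1371065_at, ran from 3.28 to 3.76 over the 19 arrays, at percentile 5.90 of mean signal. RT1-Db1 probe set 1370382_at had 5.87, 5.86 and 6.24 at day 1, against 6.11, 5.87, 6.23 and 6.42 in control cortex, and overlapped control. Over the other 9 probe sets the differences from control were -0.16 to 0.12 at day 1, -0.19 to 0.04 at day 3, -0.13 to 0.15 at day 7, -0.20 to 0.36 at day 14 and -0.21 to 0.48 at day 49. An s or x in a probe set's name means that its probes may also match related transcripts, so the RT1-Db1 probe set 1370383_s_at cannot be told from related beta chains such as RT1-Db2, and RT1-Ba probe set 1381593_x_at may read others. Which of the disagreeing probe sets follows the transcript was not tested.

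Cd74 and 7 other class II probe sets varied together between arrays of the same group, and 6 did not pass that test. After each group's mean was taken away, the deviations of Cd74 over the 19 arrays correlated with those of RT1-Db1 by r = 0.941 (Spearman's rho 0.937), of RT1-Da by r = 0.886 (rho 0.914), of RT1-Bb by r = 0.886 (rho 0.891) and of RT1-Ba by r = 0.731 (rho 0.904). RT1-DMb followed with r = 0.747 (rho 0.770) and RT1-DMa with r = 0.682 (rho 0.789), although neither had day 1 arrays apart from control. The Ciita probe sets had r of -0.05 and -0.08. In permutation tests with 100000 resamples, 7 of the 13 relations passed 0.05 after adjustment over the 13, with adjusted p-values of 4.33e-05 to 0.0145, and the Ciita relations had 0.910 and 0.885. Deviations were shuffled over all arrays and not within groups, though group means had been removed and the groups differ in spread. These and the later permutation p-values can therefore be too small. The weakest of the 7 was 0.590, and 1.23% of all probe sets had an r with Cd74 that high. RT1-Bb probe set 1371065_at had r = 0.005 and the other 3 RT1-Ba probe sets r of 0.262 to 0.417.

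With both arrays that stand apart dropped, the correlations with Cd74 were 0.982 for RT1-Db1, 0.973 for RT1-Da, 0.971 for RT1-Bb and 0.927 for RT1-Ba, and 0.533 for Ciita probe set 1379381_at (adjusted permutation p = 0.0454). The other Ciita probe set had -0.394 there (adjusted permutation p = 0.139). On those 17 arrays 8 of the 13 relations passed, and 5.89% of all probe sets had an r at least as high as the lowest of the 8. Without the 2 arrays farthest from the median of Cd74, day3 replicate 3 and day49 replicate 1, they were 0.917, 0.833, 0.824 and 0.728 in the same 4 genes and -0.310 for Ciita probe set 1379381_at. The relation of RT1-Db1 probe set 1370382_at, 0.590 over all arrays, was 0.498 without them and no longer passed (adjusted permutation p = 0.0773). In this setting the deviations were still taken from group means that include the 2 dropped arrays, so those arrays still bear on the values.

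**Figure D4:**
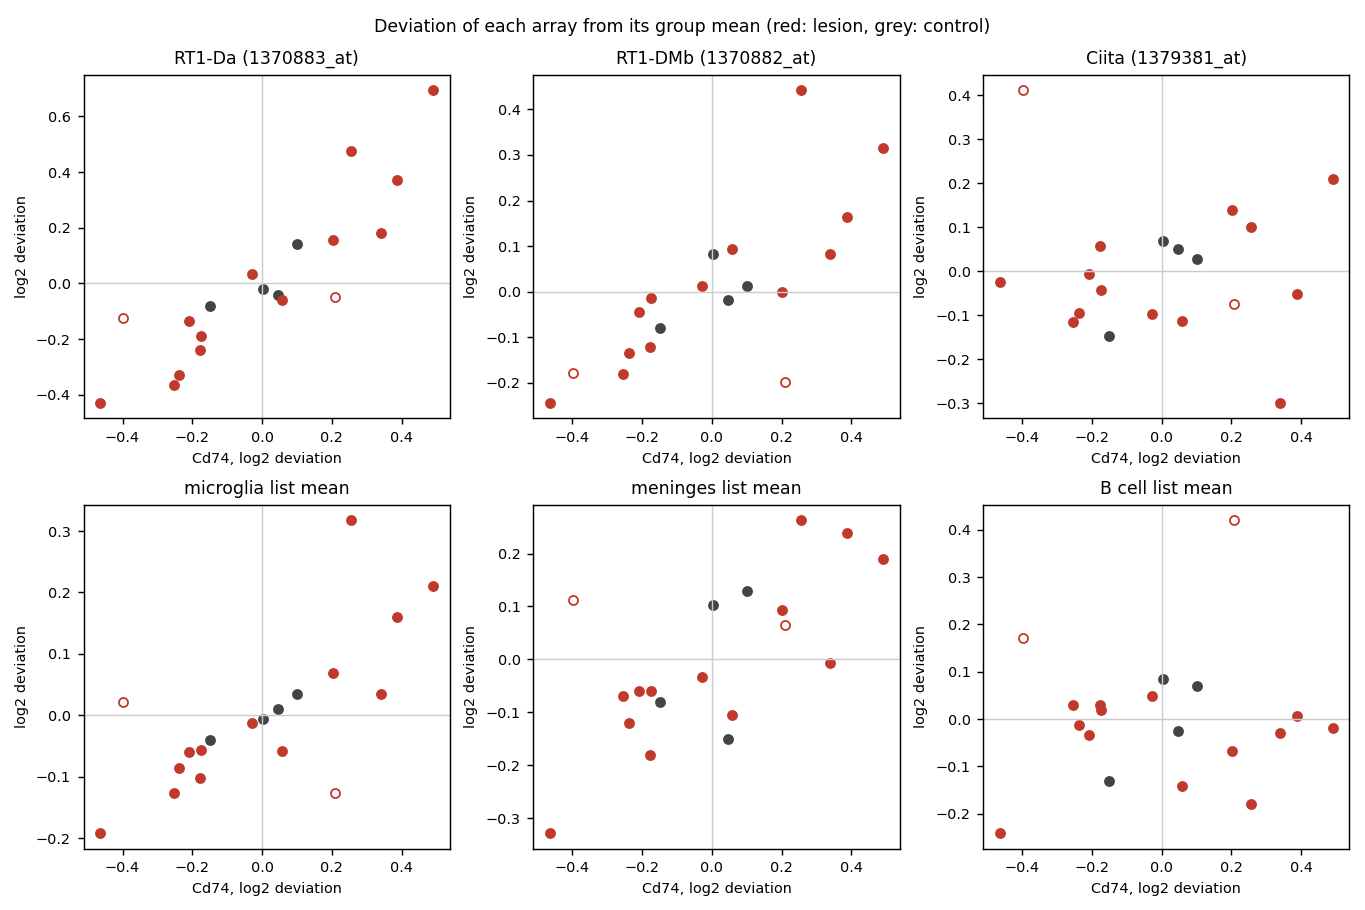
Deviation of Cd74 from its group mean (horizontal axis, log2) against that of RT1-Da, RT1-DMb, Ciita 1379381_at and the mean of the microglia, meninges and B cell markers (vertical axes, log2) on the 19 arrays, with open points for the 2 arrays that stand apart. Points lie close to a line for RT1-Da (r = 0.886) and scatter for Ciita (r = -0.08).

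The 3 genes whose level was most like that of Cd74 over the 19 arrays were other class II chains. RT1-Db1, RT1-Bb and RT1-Da held the first 3 ranks of all named genes, with r of 0.961, 0.929 and 0.921. RT1-Ba was at rank 98 with r = 0.567, and at rank 4 with r = 0.964 without the 2 arrays. The other members ranked far lower: RT1-DMb at 564 (r = 0.409), RT1-DMa at 1628 (r = 0.285) and Ciita at 3515 (r = 0.158). Without the 2 arrays they were at ranks 189, 487 and 8110. The 10 genes outside the set were Pltp (0.853), Igfbp5 (0.846), Lum (0.823), Clec7a (0.821), Myoc (0.788), Vtn (0.758), Aspn (0.751), Pax6 (0.744), Rem2 (0.736) and Ncaph (0.731). Without the 2 arrays these 10 lay between rank 5 (Clec7a) and rank 63 (Ncaph). Lum and Aspn are proteoglycans of connective tissue such as the meninges, and Clec7a is a receptor of myeloid cells. These are descriptions across arrays that share the time course.

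The pathway around the class II molecules was followed by lists chosen with earlier results of these data known. Each gene was read by its brightest probe set, and the 8 class II genes so read had a median difference of -0.82 at day 1 with 6 of 8 lower, where all named genes had a median of 0.01 with 47.3% lower. Over all 14 class II probe sets the median at day 1 was -0.02 with 8 of 14 lower, so the lower median belongs to the brightest probe sets. Of the factors that act on the class II promoter or on the protein's turnover, 4 of 9 measured were lower at day 1 (median 0.06). Rfx5, which binds the X box, differed by -0.05 at day 1 and Nfyb, a chain of NF-Y, by 0.11. Of the proteases and other factors that prepare peptides and trim Cd74, 8 of 10 were lower, with a median of -0.01. Sppl2a, which cuts the last Cd74 remnant, differed by -0.21 at day 1 and Ifi30, a thiol reductase of endosomes, by -0.01.

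Of the interferon gamma axis, 7 of 12 genes were lower at day 1, with a median of -0.05. Cxcl9, a chemokine that interferon gamma induces, differed by -0.38 at day 1, 0.31 at day 14 and 0.45 between days 7 and 14 and days 1 and 3 (adjusted p = 0.513 in limma's test). Without the 2 arrays that last difference was 0.49 and passed (adjusted p = 0.0395). Gbp2, a GTPase of the same response, differed by -0.02 at day 1. Of the costimulatory ligands 2 of 5 were lower at day 1 (median 0.04). Those were Cd48 at -0.35 and Cd83, a surface protein of mature dendritic cells that steadies class II at the surface, at -0.36 (adjusted p = 1.00, and 0.0464 without the 2 arrays). Of the class I pathway 16 of 21 genes were lower at day 1, with a median of -0.05. Its named members RT1-CE10 and RT1-M3-1 differed by -0.03 and -0.14. No gene of these lists passed limma's test over all probe sets on the 19 arrays, counted alike, in any comparison.

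At later times the class II genes, by brightest probe set, had medians of -0.44 at day 3 (8 of 8 lower), -0.22 at day 7 (7 of 8 lower), 0.16 at day 14 (2 of 8 lower) and 0.01 at day 49 (4 of 8 lower). Of all named genes 52.8%, 46.1%, 37.0% and 55.5% were lower at these times. The 2 lower at day 14 were RT1-Ba (-0.86) and RT1-DMa (-0.20). Without day14 replicate 2 and day49 replicate 2 both were higher, by 0.35 and 0.13. Over all 14 probe sets the medians were -0.10, -0.04, 0.16 and 0.04. With day14 replicate 2 and day49 replicate 2 dropped, the 8 genes had a median of 0.34 at day 14, against -0.08 to 0.11 for the other lists in the plot of list medians, and -0.06 at day 49. On all 19 arrays that plot has the class II median below those of the other lists at days 1, 3 and 7 and within their range at days 14 and 49.

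**Figure D5:**
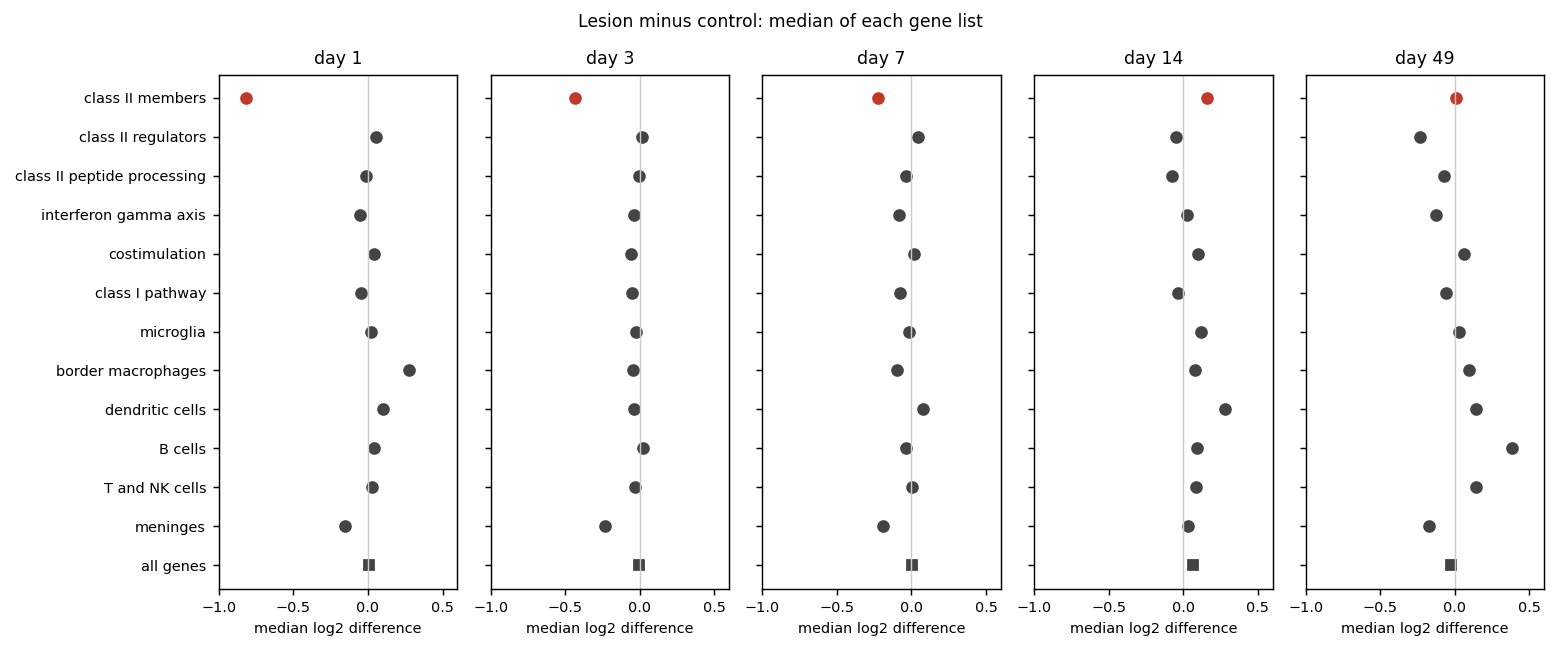
Median log2 difference from control (horizontal axis) of the class II genes (red), of 11 pathway and immune or border cell lists (grey circles) and of all named genes (squares), each gene by its brightest probe set, in 1 panel for each of days 1, 3, 7, 14 and 49 after the lesion. The class II median of -0.82 at day 1 lies below that of every other list shown.

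Markers of the cells that can carry class II were read beside the genes. The mean of 18 microglial markers was between 5.84 and 6.10 on the day 1 arrays, against 5.83 to 5.91 on the control arrays, and 8 of 18 were lower at day 1 (median 0.02). C1qc, a complement subunit of microglia, differed by 0.62 at day 1, and Csf1r, the receptor that microglia need to survive, by 0.20. The mean of 10 markers of border macrophages was between 5.37 and 5.52 at day 1, against 5.09 to 5.28 on the control arrays, with 2 of 10 lower. Stab1, a scavenger receptor of such cells, differed by 0.54 and Ms4a7 by -0.08.

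The 12 meningeal markers had means between 7.92 and 8.34 on the day 1 arrays and between 7.87 and 8.18 at day 3, against 8.10 to 8.38 on the control arrays, with 7 of 12 lower at day 1 (median -0.15). Lum, the small proteoglycan named above, differed by -0.93 at day 1 (adjusted p = 0.192 in limma's test, and 0.0410 without the 2 arrays), and Aspn by -0.56. Of the dendritic cell markers 2 of 6 were lower at day 1, of the B cell markers 2 of 7, and of the T and NK cell markers 3 of 12. The B cell, T and NK cell and dendritic markers were mostly dim: 6 of 7, 11 of 12 and 4 of 6 lay below the median probe set in mean signal. Only 1 of 12 meningeal markers did. The part of these cells in the class II values was not tested.

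Across arrays of the same group, the deviations of Cd74 correlated with those of the microglial mean by r = 0.711, of the meningeal mean by 0.681 and of the mean of the interferon gamma axis by 0.667 (adjusted permutation p = 0.00675 for each over 15 lists). With both arrays that stand apart dropped, these were 0.957, 0.878 and 0.718, and 11 of the 15 lists passed, with the class I pathway at 0.855, costimulation at 0.839, astrocytes at 0.646 and dendritic cells at 0.637 among them, against 6 of 15 on all arrays. Without the 2 arrays farthest in Cd74, but with group means that still include both, they were 0.576 (adjusted permutation p = 0.0347), 0.537 (0.0662) and 0.732 (0.0078). The B cell mean had r = 0.095 and the mean of the deep layer neurons r = -0.074. The oligodendrocyte mean had r = 0.647 (adjusted permutation p = 0.00694), the class I mean r = 0.605 and the peptide processing mean r = 0.536, and these also passed. The peptide processing mean had r = 0.435 without the 2 arrays that stand apart and no longer passed (adjusted permutation p = 0.101). The border macrophage mean had r = -0.099 over all arrays and 0.785 without the 2 arrays. The mean of the T and NK cell markers had r = 0.235 over all arrays and 0.677 without them.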

How the data were processed

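Each array has 1 log2 signal for each probe set. The authors deposited these log2 values as RMA gives them, per the submitters' processing notes, which name no version. RMA brings the probe signals of all arrays to 1 distribution, so a shift of every transcript would largely not be seen. The probe set values made from them can still differ a little. Their median difference from control was 0.07 at day 14. The platform annotation, brought up to date by gene ID, gave 1 symbol for 20826 probe sets, several for 436 and none here for 9780. The table held 31099 probe sets, of which 57 are array controls. The other 31042 were fitted together, over all 19 arrays with 6 group means and default eBayes, by limma 3.58.1 (R 4.3.3; 13 residual and 2.76 prior degrees of freedom), two-sided, with Benjamini-Hochberg adjustment over all of them and a threshold of 0.05. "Adjusted p" is that value unless a permutation is named, and "without adjustment" means the p before it. Ranks by mean signal say how bright a probe set is, and no amount of transcript was compared between probe sets. The number of arrays limits the precision, and scan dates were not analysed here.

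The members and lists were chosen with earlier results of these data known. The text names all member probe sets, up to 4 called genes of each list or else the 2 with the smallest p of the F test, and the 10 genes most correlated with Cd74. The lists were class II regulators, peptide processing, the interferon gamma axis, costimulation, the class I pathway, microglia, border macrophages, dendritic cells, B cells, T and NK cells, meninges, endothelium, astrocytes, oligodendrocytes and deep layer neurons. Correlations were tested by permutation (100000 resamples, two-sided, smallest p 1e-05) in Python 3.11.15, and plots drawn with matplotlib 3.10.9. The permutations shuffled deviations over all arrays and not within groups.

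Groups share replicate numbers in the labels, which do not say what a number marks. Deviations of like-numbered control and day 1 arrays correlated by 0.166, 0.117 and 0.269, so day 1 was also fitted with the number as a block; at the other times at least 1 pair was below 0.1. Alternatives were median centring, a repeated quantile normalization, keeping only probe sets above the median signal, trended and robust eBayes, array weights, the replicate block, the compared groups alone, the fit without the 2 arrays that stand apart, and each replicate left out in turn. The fit was tested on simulated data.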

Additional observations from a re-analysis of the deposited data

Results flagged for a closer look

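For 3 class II genes all 3 arrays of day 14 lay above the control mean and all 3 arrays of day 1 below it. The difference between day 14 and day 1 was 1.14 for RT1-Da, 1.05 for RT1-Db1 probe set 1370383_s_at and 1.31 for RT1-Bb probe set 1371033_at on the log2 scale, with adjusted p-values of 0.337, 0.419 and 0.127 in limma's fit, where 9 probe sets in all passed (0.029%). The same 3 probe sets stood on opposite sides of the control mean at day 14 and day 7, by 0.53 for RT1-Da, 0.54 for RT1-Db1 and 0.68 for RT1-Bb, with an adjusted p of 0.606 for each in limma's fit. Both comparisons share the day 14 arrays, 1 of which is day14 replicate 2.

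In 2 weak probe sets the day 14 arrays were all above the control mean and the day 3 arrays all below it. The difference was 0.16 for RT1-Ba probe set 1377334_at and 0.23 for RT1-Bb probe set 1371065_at, with adjusted p-values of 0.629 and 0.449 in limma's fit. No control array of any class II probe set lay apart from the other 3 by Dixon's criterion.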

How the results depend on the processing

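No class II probe set passed the test in any comparison on all 19 arrays when the arrays were counted alike. Centring on the median and the filter at the median probe set changed no class II call or sign and moved no count by over 1.5 times. Array weights called 175 probe sets at day 1, 2 at day 3, 9 at day 14, 6514 at day 49, 173 for days 7 and 14 against days 1 and 3, and 6413 in the F test. In class II they called 5, none, none, 3, 5 and 7. The shares of all probe sets were 0.564%, 0.00644%, 0.029%, 21.0%, 0.557% and 20.7% in the same order. With them the difference of RT1-Ba was 0.31 at day 14, and at day 49 those of RT1-Da, RT1-Db1 1370383_s_at and RT1-Bb were 0.16, 0.29 and 0.019. The day 49 mean in that fit rests mostly on day49 replicate 3, which had a weight of 3.70. Quantile normalization again gave 1 probe set in the F test, and 0.13 for RT1-Db1 and 0.021 for RT1-Bb at day 49. Trended and robust eBayes gave 2 in the F test. The compared groups alone gave 19 at day 1, 3 at day 3 and 1 at day 14, none in class II. Without the 2 arrays 68 passed at day 1, 3 for the later against the early days and 42 in the F test, none in class II, and RT1-Ba differed by 0.35 at day 14 and -0.17 at day 49.

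With the replicate number as a block 3 probe sets passed at day 1 and 0 in the F test, against 11 and 4 without it, and the pairing changed no class II call.

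Leaving out 1 replicate at a time gave 0 to 13 probe sets at day 1 (0 without day1 replicate 2, 2 to 6 without day1 replicate 1 or control replicate 1, 2 or 4), 0 to 1 at day 14, 0 to 2435 at day 49, 0 to 2 for the later against the early days and 0 to 11 in the F test. In class II it gave 0 to 2 at day 49, the 2 being RT1-Ba probe sets without day49 replicate 1, and 0 elsewhere. RT1-Ba ranged from -1.53 to 0.35 at day 14, from -0.17 to 0.38 at day 49 and from -0.21 to 0.73 for the later against the early days. At day 49 RT1-Da ranged from -0.43 to 0.018, RT1-Db1 from -0.22 to 0.18 and RT1-Bb from -0.24 to 0.11. The day 1 differences of the 5 genes stayed between -1.16 and -0.66. Of 688 alternative values of 40 differences, 657 kept sign and side of the threshold, 14 came to pass it and 17 changed sign. The causes were not tested.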

Other observations

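Markers of T cells, which read class II molecules, and of B cells, which carry them, had their highest array in day49 replicate 2, 1 of the arrays that stand apart. Without both such arrays the highest array was day49 replicate 3 for T and NK cells, at 4.46, and control replicate 1 for B cells, at 4.94, against 4.93 in day49 replicate 3. The mean of the 12 T and NK cell markers was between 4.28 and 4.67 at day 49, against 4.21 to 4.31 on the control arrays, and none of the 12 was lower (median 0.14, and 0.08 without the 2 arrays that stand apart). Cd247, a chain of the T cell receptor complex, differed by 0.31 at day 49 and Cd3g by 0.13. The mean of the 7 B cell markers was between 4.87 and 5.53 at day 49, against 4.72 to 4.94 on the control arrays, and their median difference of 0.39 was 0.03 without the 2 arrays. Cd22 and Cr2, receptors of B cells, differed by 0.41 and 0.39. Of the dendritic cell markers Itgax, an integrin chain, differed by 0.27 at day 49 and Itgae by -0.01. None of these passed limma's test over all probe sets.

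The lists for other cell types of the cortex had medians near 0 or above it at day 1. Astrocyte markers had a median difference of 0.04 at day 1 with 2 of 8 lower, and Gfap, their filament protein, differed by 0.64 at day 1 and 0.70 at day 14, and Gja1 by -0.01 at day 1. Endothelial markers had a median of 0.12 at day 1 with 2 of 9 lower, with Esam at 0.18 and Kdr at 0.15. Oligodendrocyte markers had a median of 0.04 with 2 of 9 lower, and Cldn11 and Mag, both of myelin, differed by 0.44 and 0.29. Deep layer neuronal markers had a median of -0.01 with 6 of 12 lower, with Crym at -0.20 and Syt1 at -0.33. None of these genes passed the test.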
